A study of Homo sapiens with 12 samples.

Results

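The genes described here are 5 members of the UGT2B family of enzymes that attach glucuronic acid (UGT2B10, UGT2B11, UGT2B15, UGT2B17 and UGT2B28) with ACKR3 and BCHE. These 7 genes, of 28008 listed in the MUC1-C silencing counts and 25435 in the MUC1-C overexpression counts, were chosen by symbol as genes whose transcripts were lower with doxycycline (DOX) than with vehicle in enzalutamide-resistant LNCaP-ER cells. The counts went against that rule for part of the family. ACKR3, BCHE and UGT2B17 had lower CPM (read counts scaled to a common library total) in every library labelled DOX than in every vehicle library. UGT2B11 and UGT2B28 were instead higher in every library labelled DOX than in every vehicle library, and the groups overlapped for UGT2B15 and UGT2B10. Thus 3 of the 7 members were lower without overlap and 2 were higher without overlap, beside 23.2% and 21.1% of all 14683 genes tested. Because the DOX contrast chose the members, their values in it are given as a description with no test.

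LNCaP is an androgen-responsive human prostate cancer cell line, and LNCaP-ER is its derivative made resistant to enzalutamide, an antiandrogen drug, by continuous exposure to the drug. In the silencing experiment, LNCaP-ER/tet-MUC1shRNA cells, which carry a DOX-inducible shRNA against MUC1 and a puromycin marker, were given 0.1% DMSO as vehicle (n = 3 libraries) or 500 ng/mL DOX (n = 3) for 7 days. Both groups therefore share the enzalutamide selection and the integrated vector, 1 shRNA sequence was used, and no library of cells with a control shRNA under DOX was analysed here. In the overexpression experiment, the groups were LNCaP (n = 3) and LNCaP/MUC1-C OE (n = 3), the latter expressing exogenous MUC1-C. The labels call the LNCaP controls wild-type and the count columns call them vector, while the labels of the MUC1-C OE libraries name the line in more than 1 way. The 3 libraries of each group came from triplicate cultures of 1 line.

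UDP-glucuronosyltransferases of the UGT2B family sit in the endoplasmic reticulum and couple glucuronic acid to steroids, bile acids and drugs, which makes them water soluble. UGT2B15 and UGT2B17 are the main enzymes that conjugate dihydrotestosterone and testosterone in prostate cells, and androgens are known to lower their transcripts in LNCaP cells. ACKR3, also called CXCR7, is an atypical chemokine receptor that binds CXCL12 and CXCL11, recruits beta-arrestin and removes its ligands. BCHE encodes butyrylcholinesterase, a secreted serine esterase that hydrolyses choline esters and the acyl group of ghrelin.

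On assembly GRCh38.p14, the UGT2B members lie within 758 kb of chromosome 4, from position 68537173 to 69295050, in the order UGT2B17, UGT2B15, UGT2B10, UGT2B11 and UGT2B28, with UGT2A3 and UGT2B7 between UGT2B10 and UGT2B11. UGT2B17 (chr4:68537173-68576322) and UGT2B15 (chr4:68646597-68670652), the pair with lower mean CPM under DOX, are neighbours at the first end of the cluster. UGT2B11 (chr4:69199951-69224984) and UGT2B28 (chr4:69280475-69295050), the pair with higher CPM, are neighbours at the last end, and UGT2B10 (chr4:68815994-68832023) lies between the pairs. ACKR3 (chr2:236537122-236582354) and BCHE (chr3:165772904-165837423) lie on other chromosomes.

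The sequences just before the transcription start are shown to compare the 3 UGT2B genes that the RefSeq promoter table holds, which include genes that differed from vehicle in opposite directions, and to set BCHE beside them. The table matched 4 of the 7 members, and UGT2B17, UGT2B28 and ACKR3 were not matched. Each line gives 190 bases ending at the base before the start, 5′ to 3′, from RefSeq on GRCh38.p14, and the windows are chr4:68815804-68815993 on the plus strand for UGT2B10, and chr4:69214749-69214938, chr4:68670653-68670842 and chr3:165837424-165837613 on the minus strand for UGT2B11, UGT2B15 and BCHE. Capitals mark matches to the motifs searched, and the start that the table gives for UGT2B11 lies inside the span of the gene given above.
UGT2B10: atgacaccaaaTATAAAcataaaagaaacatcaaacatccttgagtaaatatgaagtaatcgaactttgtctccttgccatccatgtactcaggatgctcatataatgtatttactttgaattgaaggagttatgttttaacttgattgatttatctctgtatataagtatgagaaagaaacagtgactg
UGT2B11: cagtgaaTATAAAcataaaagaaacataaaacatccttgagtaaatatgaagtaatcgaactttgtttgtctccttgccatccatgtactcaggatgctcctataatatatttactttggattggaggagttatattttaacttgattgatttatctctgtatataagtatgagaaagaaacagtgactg
UGT2B15: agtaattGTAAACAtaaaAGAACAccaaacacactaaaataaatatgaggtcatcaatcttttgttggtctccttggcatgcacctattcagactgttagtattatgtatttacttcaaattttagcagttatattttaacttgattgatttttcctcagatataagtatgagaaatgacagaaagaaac
BCHE: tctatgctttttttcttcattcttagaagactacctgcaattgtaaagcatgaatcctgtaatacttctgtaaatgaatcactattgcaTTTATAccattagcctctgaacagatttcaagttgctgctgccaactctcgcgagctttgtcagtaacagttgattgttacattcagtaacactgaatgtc

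The motifs were searched on both strands in 300 bases, 250 before the start and 50 from it, for the 4 members in the table. The palindromic androgen response element, a pair of 6-base arms with 3 bases between, was in none of the 4 windows and in 0.00285% of the 35116 promoters. Its AGAACA arm was found only for UGT2B15 among the 4, at -172 to -167 from the start, and 14.8% of all promoters held it. A forkhead motif, TGTTTAC on the opposite strand, lay 4 bases before that arm in UGT2B15, at -183 to -177, and 3.42% of promoters held it. The TATA box letters TATAAA occurred at 3 places in UGT2B10 and 2 in UGT2B11, none closer to the start than -174, and once in BCHE on the opposite strand at -101 to -96, against 11.5% of promoters. Only those exact letters were searched, so like runs are not marked, such as tatataa closer to the start in UGT2B10 and UGT2B11. The HNF1 motif GTTAAT, held by 6.88% of promoters, was in none of the 4. A match is a run of letters and was not tested as a site. Over the 300 bases, the UGT2B10 and UGT2B11 promoters were 90.1% identical, whereas UGT2B15 was 68.8% identical to UGT2B10 and 70.5% to UGT2B11. Thus the pair with the most alike of these promoters comprised UGT2B11, which was higher under DOX, and UGT2B10, whose groups overlapped.

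Parts of the transcripts of the family are alike enough for short reads to be hard to place. UGT2B15 and UGT2B17 transcripts were 88.7% identical, and 27.5% of the 50-base windows of the UGT2B17 transcript were also in UGT2B15. UGT2B11 shared 18.1% of its 50-base windows with UGT2B28 and 9.76% with UGT2B10. Between the UGT2B15/UGT2B17 pair and the UGT2B11/UGT2B28 pair, at most 3 windows were shared by any 2 transcripts. With 100-base windows, UGT2B17 shared 12.7% with UGT2B15, and UGT2B11 shared 0.855% with UGT2B28 and 2.51% with UGT2B10. How reads that match several genes were counted is not given in the sources used here. The division of reads within each pair is therefore uncertain, and for UGT2B11 and UGT2B28 this depends on the length of the reads. The division between the pairs is less open to this doubt.

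The silencing libraries held 28045894 to 45807989 counted reads and the overexpression libraries 13806856 to 19208944. MUC1 itself was counted at 26, 10 and 13 reads in vehicle libraries 1, 2 and 3, and at 3, 42 and 8 in the libraries labelled DOX. The library labelled DOX replicate 2 thus held more MUC1 reads than any vehicle library, and no difference in MUC1 between the groups passed the test (log2 fold change 0.12, 95% confidence interval -1.98 to 2.22, adjusted p = 0.935 by edgeR). That library also stood apart in listing 11.2% of genes at 0 reads, against 28% to 38.1% in the other 5. Without it, 3 members were again lower and 2 higher without overlap. MUC1 in the other experiment was counted at 30, 25 and 31 reads in LNCaP and at 9168, 9959 and 12622 reads in MUC1-C OE libraries (log2 fold change 8.91 ± 0.12 (SE), adjusted p = 2.77e-16). Bulk RNA cannot tell fewer cells of a kind from less RNA per cell.

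UGT2B17, which inactivates testosterone and dihydrotestosterone, was counted at 221, 94 and 99 reads in vehicle libraries 1, 2 and 3. The libraries labelled DOX held 64, 38 and 90 UGT2B17 reads. On the CPM scale scaled by TMM, UGT2B17 was 4.195 ± 1.46 (SD, n = 3) in vehicle and 1.72 ± 0.384 (SD, n = 3) in DOX, and its log2 fold change was -1.28. Every DOX library was below every vehicle library, and vehicle replicate 1 was the highest of the 6. UGT2B15, its near-identical neighbour, was counted at 235, 82 and 112 reads in vehicle and at 86, 41 and 139 in DOX. Its mean was 4.34 ± 1.76 CPM (SD, n = 3) in vehicle and 2.33 ± 0.846 CPM (SD, n = 3) in DOX, with a log2 fold change of -0.89. The UGT2B15 groups overlapped, since DOX replicate 3 at 2.996 CPM lay above vehicle replicate 2 at 2.79 CPM. The ratio of UGT2B17 to UGT2B15 reads was 0.884 to 1.15 in vehicle and 0.647 to 0.927 in DOX.

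UGT2B11, a family member with few known substrates, was counted at 39, 16 and 7 reads in vehicle. The libraries labelled DOX held 390, 281 and 677 UGT2B11 reads. Its CPM was 0.610 ± 0.398 (SD, n = 3) in vehicle and 11.9 ± 2.59 (SD, n = 3) in DOX, 19.6 times as high, and the lowest DOX library (9.42 CPM) was far above the highest vehicle library (1.04 CPM). UGT2B28, which conjugates steroids and bile acids, was counted at 9, 2 and 2 reads in vehicle and at 211, 91 and 343 in DOX. Its CPM was 0.126 ± 0.0979 (SD, n = 3) in vehicle and 5.61 ± 2.27 (SD, n = 3) in DOX, 44.5 times as high, with no overlap. The log2 fold changes were 4.24 for UGT2B11 and 5.36 for UGT2B28. In all 3 DOX libraries the pair was far above vehicle, the library with the MUC1 count against its label included.

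UGT2B10, which conjugates nicotine and other amines, was counted at 31, 0 and 1 reads in vehicle and at 25, 11 and 47 in DOX. Its CPM was 0.286 ± 0.466 (SD, n = 3) in vehicle and 0.713 ± 0.324 (SD, n = 3) in DOX. Of the vehicle libraries, replicate 1 alone lay within the range of DOX, and the log2 fold change of 1.25 became 5.09 without that library, a fitted value that depends on the prior count since the other 2 vehicle libraries held 0 and 1 reads. Vehicle replicate 1 was also the highest vehicle library for each of the other 6 members.

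**Figure D1:**
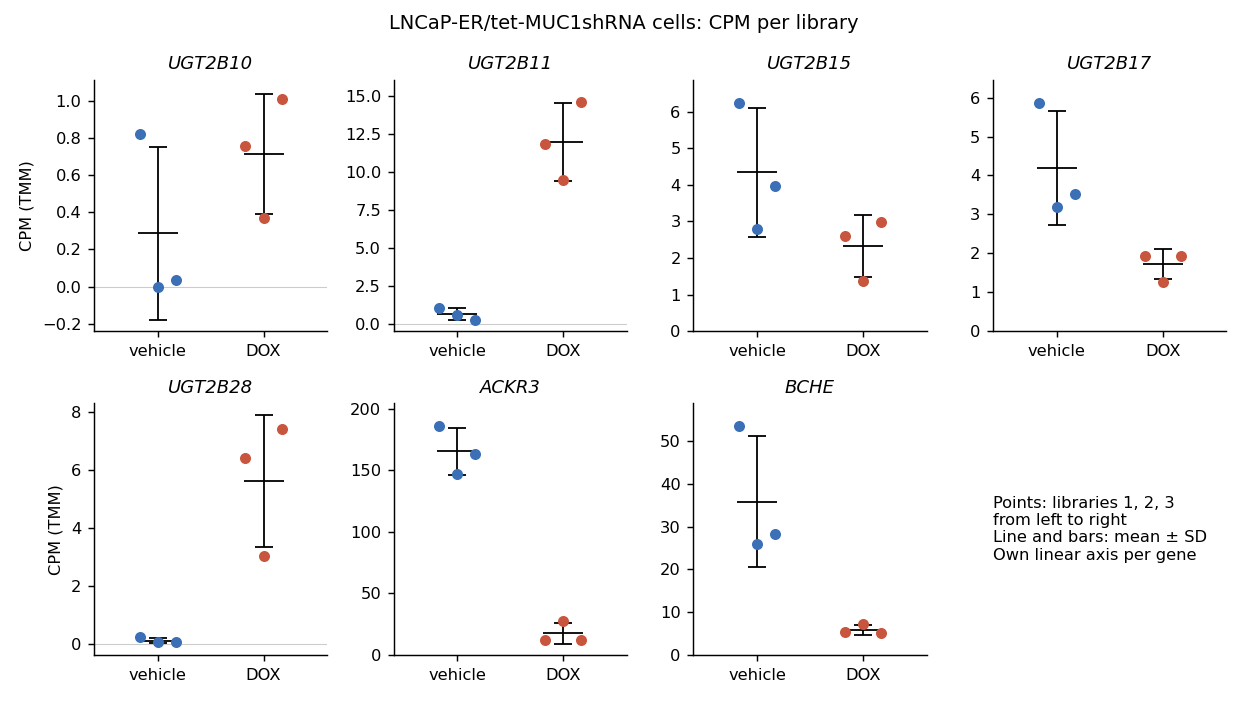
CPM (TMM) of the 7 members in the 3 vehicle and 3 DOX libraries of LNCaP-ER/tet-MUC1shRNA cells, each gene on its own linear axis, with points for libraries 1, 2 and 3 from left to right and the mean ± SD as line and bars. ACKR3, BCHE and UGT2B17 lay lower in every DOX library, UGT2B11 and UGT2B28 lay higher in every DOX library, and the groups of UGT2B10 and UGT2B15 overlapped.

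As members of the family differed in opposite directions, the make-up of the UGT2B transcripts differed between the groups. On the scale of the deposited TPM, in which counts are divided by gene length, the 5 genes summed to 2.72, 1.104 and 1.07 TPM in vehicle libraries 1, 2 and 3. The sum was 11.0, 9.46 and 11.3 TPM in the DOX libraries, above every vehicle library. On the CPM scale, which does not divide by length, the sum was 14.2, 6.60 and 7.85 in vehicle and 23.5, 15.5 and 27.9 in DOX, and vehicle replicate 1 lay just below DOX replicate 2. UGT2B11 and UGT2B28 together made up 20.9%, 20.9% and 9.96% of the TPM sum in vehicle and 90.6%, 92.0% and 91.3% in DOX. The vehicle TPM sum was mostly UGT2B15 and UGT2B17, at 76.5%, 79.1% and 89.8%, a share that was 8.65%, 7.52% and 7.83% in DOX. UGT2B10 was at most 2.64% of the TPM sum in any library. The lengths behind the TPM are not given in the sources used here, and those implied by counts and TPM were 6159 bases for UGT2B15 and 5620 for UGT2B17 against 2077 exonic bases for each in GENCODE v29. With counts divided by the GENCODE v29 exonic lengths instead, the UGT2B11 and UGT2B28 share was 3.85% to 8.56% in vehicle and 76.8% to 79.5% in DOX. On that scale the UGT2B15 and UGT2B17 share was 85.4% to 95.7% in vehicle and 17.8% to 19.7% in DOX, and UGT2B10 was at most 6.24%, in vehicle replicate 1.

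**Figure D2:**
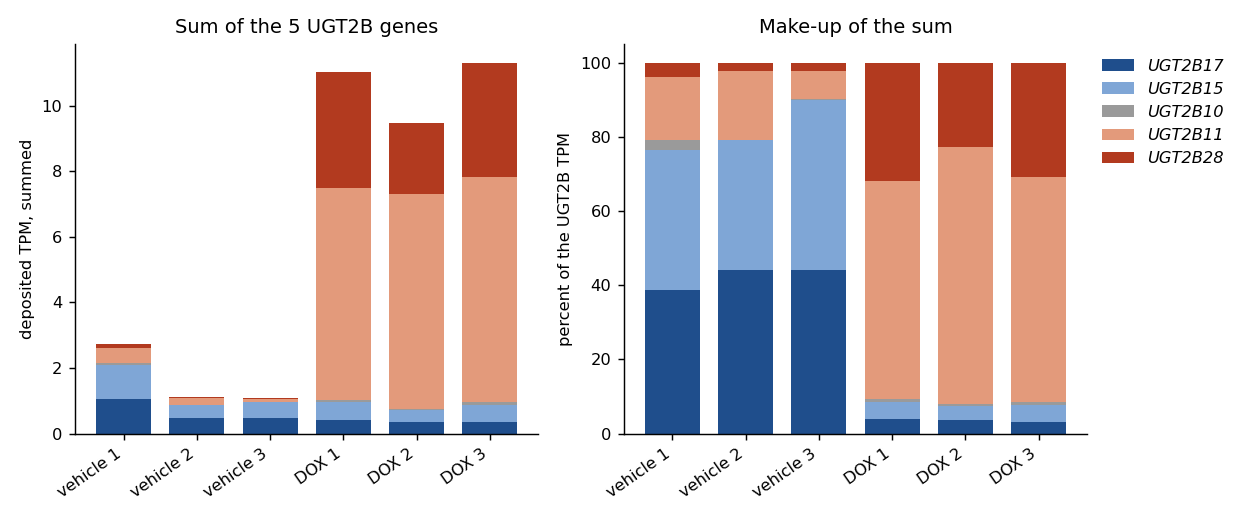
Deposited TPM of the 5 UGT2B genes in each silencing library, summed (left, linear axis from 0) and as percent of the sum (right), with 1 stacked bar per library. UGT2B15 and UGT2B17 were the larger part in the 3 vehicle libraries and UGT2B11 and UGT2B28 in the 3 DOX libraries.

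By TPM level in vehicle, the order was ACKR3 (55.2 ± 13.8, SD, n = 3), BCHE (9.93 ± 5.71), UGT2B17 (0.672 ± 0.332), UGT2B15 (0.633 ± 0.342), UGT2B11 (0.249 ± 0.193), UGT2B28 (0.0524 ± 0.0477) and UGT2B10 (0.0247 ± 0.0409). From UGT2B17 down, each gene differed from its neighbour in that order by less than the sum of their SDs. In DOX the order was ACKR3 (9.05 ± 6.30), UGT2B11 (6.62 ± 0.195), UGT2B28 (3.06 ± 0.792), BCHE (2.39 ± 0.980), UGT2B15 (0.466 ± 0.0978), UGT2B17 (0.385 ± 0.0382) and UGT2B10 (0.0750 ± 0.0222). UGT2B11 stood next to ACKR3 in DOX, within the spread of ACKR3. By TPM it was above ACKR3 in DOX replicates 1 (6.46 against 5.85 TPM) and 3 (6.83 against 4.99 TPM). On CPM, UGT2B11 was below ACKR3 in DOX replicate 1 (11.8 against 12.4) and above it in replicate 3 (14.6 against 12.4). The order between genes by TPM thus rests on lengths that are not given in the sources used here. UGT2B28 and BCHE also lay within their spreads of each other, as did UGT2B15 and UGT2B17.

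ACKR3 had the highest TPM of the members in every vehicle library. It was counted at 6987, 4327 and 4589 reads in vehicle libraries 1, 2 and 3 and at 410, 812 and 574 in DOX. Its CPM was 165 ± 19.4 (SD, n = 3) in vehicle and 17.3 ± 8.56 (SD, n = 3) in DOX, 9.53 times as high in vehicle, with a log2 fold change of -3.26. The highest DOX library, replicate 2 at 27.2 CPM, was the library with the MUC1 count against its label, and it was still below the lowest vehicle library at 147 CPM. Without it the log2 fold change was -3.70.

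BCHE was counted at 2013, 760 and 793 reads in vehicle and at 175, 216 and 235 in DOX. Its CPM was 35.8 ± 15.3 (SD, n = 3) in vehicle and 5.87 ± 1.19 (SD, n = 3) in DOX, 6.11 times as high in vehicle, with a log2 fold change of -2.61. The 3 DOX libraries lay close together, and the spread in vehicle came from replicate 1 at 53.5 CPM. Without vehicle replicate 1 the log2 fold change was -2.21.

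The direction of each member under DOX was the same in every alternative fit, scaling, filter and left-out library in which it could be fitted. Over the fits on counts, the log2 fold change spanned -3.70 to -3.07 for ACKR3, -2.81 to -2.21 for BCHE, -1.45 to -0.96 for UGT2B17 and -1.14 to -0.53 for UGT2B15. It spanned 3.88 to 4.89 for UGT2B11, 5.07 to 6.26 for UGT2B28 and 0.70 to 5.09 for UGT2B10. Without DOX replicate 2 it was -3.70 for ACKR3, -2.76 for BCHE, -1.08 for UGT2B17, -0.60 for UGT2B15, 4.41 for UGT2B11, 5.68 for UGT2B28 and 1.56 for UGT2B10. On the log2(TPM + 0.1) scale the differences were -2.77 for ACKR3, -1.94 for BCHE, -0.59 for UGT2B17, -0.29 for UGT2B15, 4.41 for UGT2B11, 4.38 for UGT2B28 and 0.53 for UGT2B10, all but that of UGT2B11 outside the span on counts. With a pseudocount of 1 they were -2.63 for ACKR3, -1.61 for BCHE, 2.62 for UGT2B11 and 1.93 for UGT2B28, and the median of all genes was at 0.45 on that scale.

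**Figure D3:**
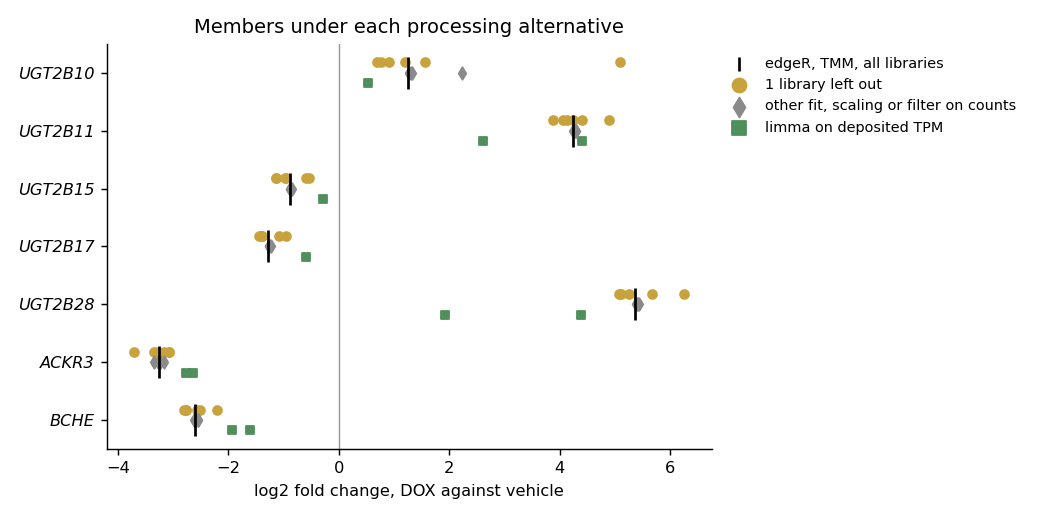
Log2 fold change of each member, DOX against vehicle, from edgeR with all libraries (black line), with 1 library left out (circles), under other fits, scalings and filters on counts (diamonds) and by limma on the deposited TPM (squares). No member crossed 0, and UGT2B10 had the widest span, with 5.09 when vehicle replicate 1 was left out.

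The rule used the DOX contrast and not the overexpression experiment, so differences there were tested, although earlier results of these data were known when the members were chosen. Of the 7, BCHE and ACKR3 passed the filter on low counts, ACKR3 through its LNCaP libraries alone, and the 5 UGT2B members did not pass. The adjusted p was under 0.05 for both, beside 67.3% of all 13836 genes tested (34.1% lower and 33.2% higher), and since the filter decided which members were tested, nothing is read from that number. ACKR3 was counted at 19, 18 and 14 reads in LNCaP libraries and at 0 reads in all 3 MUC1-C OE libraries. ACKR3 fell, with 0.870 ± 0.125 CPM (SD, n = 3) in LNCaP, a fitted log2 fold change of -6.92 ± 0.89 (SE) and an adjusted p of 4.99e-06 by edgeR. No weight is put on that p, since ACKR3 entered the test through the group where it was high. The fitted size depends on the prior count, as every MUC1-C OE library held 0 reads, and DESeq2 gave -6.13 ± 1.31 (SE). Taking 3 reads over the group as the most that a count of 0 allows, ACKR3 was at least 12.9-fold lower. That bound covers only the counting error of the 0 reads and takes the LNCaP reads as exact. With no filter on low counts its adjusted p was 4.2e-10, the lowest of the alternatives in which it could be fitted, and the highest was 0.000102. A minimum of 10 reads in every library removed it from the test.

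BCHE was counted at 584, 564 and 533 reads in LNCaP and at 614, 458 and 467 reads in MUC1-C OE. Its CPM was 28.7 ± 1.04 (SD, n = 3) in LNCaP and 34.8 ± 6.81 (SD, n = 3) in MUC1-C OE, and the groups overlapped. The log2 fold change was 0.27 ± 0.11 (SE), with a 95% confidence interval of 0.03 to 0.52 and an adjusted p of 0.0482 by edgeR. That call was lost with median-of-ratios factors (adjusted p = 0.0534), library size only (0.364) and a minimum of 10 reads in every library (0.0801). It was also lost without any 1 of the 3 LNCaP libraries or of MUC1-C OE replicates 1 and 2, with adjusted p of 0.0824 to 0.218, and its log2 fold change was 0.12 without MUC1-C OE replicate 1. The BCHE call thus depended on these choices, and its interval excludes a change of the size seen under DOX in either direction.

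The 5 UGT2B members were below the filter in the overexpression table, where LNCaP libraries held 7, 12 and 15 reads of all 5 together. UGT2B17 was counted at 2, 9 and 6 reads in LNCaP and at 0 in every MUC1-C OE library. With its LNCaP reads taken as exact, it was at least 4.32-fold lower over the group. UGT2B15 was counted at 2, 1 and 4 reads and UGT2B11 at 1, 2 and 3 reads in LNCaP. Both were at 0 in MUC1-C OE, and their bounds taken the same way were 1.78-fold and 1.52-fold lower. These bounds leave out the counting error of the few LNCaP reads, so they do not establish a fall for UGT2B15 or UGT2B11. UGT2B10, at 0, 0 and 2 reads, and UGT2B28, at 2, 0 and 0 reads in LNCaP, were at or under the 3 reads that a count of 0 allows, so no difference was detectable at this depth. With no filter on low counts, edgeR gave an adjusted p of 0.000647 for UGT2B17, 0.0402 for UGT2B15 and 0.0607 for UGT2B11. DESeq2 gave 0.00923 for UGT2B17, 0.165 for UGT2B15 and 0.219 for UGT2B11, so UGT2B11 passed in neither fit.

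**Figure D4:**
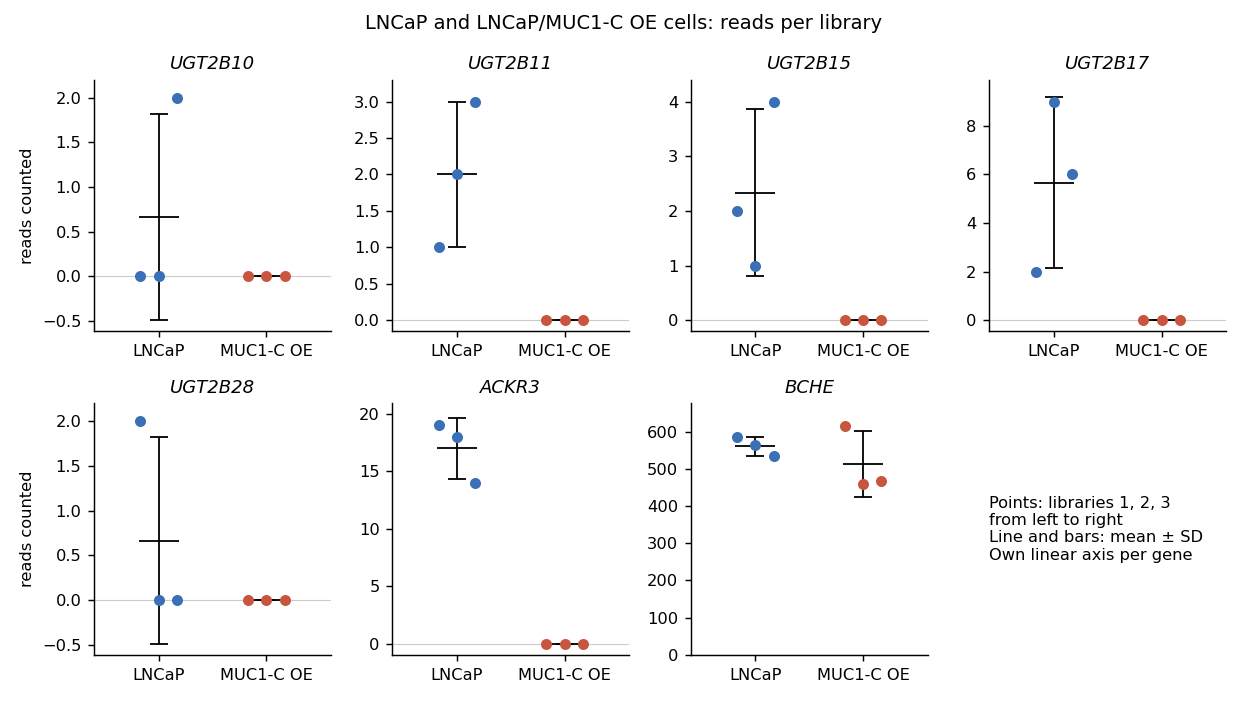
Reads counted for the 7 members in the 3 LNCaP and 3 MUC1-C OE libraries, each gene on its own linear axis, with points for libraries 1, 2 and 3 from left to right and the mean ± SD as line and bars. All members except BCHE were at 0 reads in the 3 MUC1-C OE libraries, and the BCHE groups overlapped.

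Most markers of luminal prostate cells fell in the overexpression experiment, in which ACKR3 fell. Of 6 luminal markers, 5 fell and none rose in MUC1-C OE libraries, beside 34.1% and 33.2% of all genes. The summed level of the list was 283 to 291 CPM in LNCaP and 64.4 to 72.1 CPM in MUC1-C OE. KLK3, which encodes PSA, was counted at 514, 432 and 434 reads in LNCaP and at 0 in every MUC1-C OE library, and KLK2 and FOLH1 were also at 0 in all 3. HOXB13, at 33.6 ± 2.47 against 31.4 ± 1.52 CPM (SD, n = 3, adjusted p = 0.248), did not pass the test. Of 6 neuroendocrine markers, 5 were tested, of which SYP rose and 4 fell. The summed basal markers reached at most 0.158 CPM and the summed liver markers 0.345 CPM in any library of this experiment, and the stromal and blood markers summed to 43.8 to 47.8 CPM in LNCaP and 33.6 to 36.9 CPM in MUC1-C OE, nearly all of it COL1A1. The part of these markers in the result for the members was not tested. In the silencing experiment, 4 luminal markers rose and none fell, beside 12.8% and 14.5% of all genes. Their sum was 2240 to 2689 CPM over all 6 in vehicle and 2823 to 3133 CPM in DOX. There the summed neuroendocrine markers were 3.81 to 6.86 CPM in vehicle and 6.55 to 23 CPM in DOX, highest in DOX replicate 2, without which the members' log2 fold changes are given above. The basal markers summed to at most 3.05 CPM and the liver markers to at most 7.44 CPM, both in DOX, and the stromal and blood markers to 9.18 to 13.2 CPM in vehicle and 6.94 to 13.3 CPM in DOX.

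Other genes of glucuronidation, a list that leaves out the members, mostly did not pass the test under DOX. Of 8 that were tested, 1 rose, 1 fell and 6 did not pass, with a median log2 fold change of 0.05 against -0.02 over all genes. With library size as the only scaling 1 rose and none fell, and on the deposited TPM 4 of 7 were higher and none lower. Of all genes tested under DOX, 27.3% were called (14.5% lower and 12.8% higher). Among the called genes 46.8% were higher, a share that was 59.6% with library size as the only scaling and 95.2% on the TPM scale. UGT2B4, another enzyme of the family, was at 0.536 ± 0.186 CPM in vehicle and 0.463 ± 0.0361 CPM in DOX (SD, n = 3, adjusted p = 0.80). UGT2B7 held 8 reads over the vehicle libraries and 2 over the DOX libraries, a ratio of 0.218 with a counting interval of 0.0225 to 1.09. UGDH, which makes the glucuronic acid donor, was at 162 ± 4.29 CPM in vehicle and 173 ± 62.1 CPM in DOX (adjusted p = 0.789). The gene that rose was SLC35B1, a transporter of the endoplasmic reticulum, by a log2 fold change of 0.30 ± 0.10 (SE). Its adjusted p lay at the threshold (0.05 as rounded, by edgeR), and DESeq2 did not call it. The gene that fell was GUSB, the lysosomal enzyme that splits glucuronides, by -0.35 ± 0.10 (SE). Both calls were lost when any 1 of vehicle replicates 2 and 3 or DOX replicates 1 and 3 was left out, and SLC35B1 also without vehicle replicate 1. GUSB was higher, not lower, on the TPM scale.

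Of 10 glucuronidation genes tested with MUC1-C OE, 2 rose and 5 fell, beside 33.2% and 34.1% of all genes tested. Their median log2 fold change was -0.10 against -0.01 over all genes, and with library size only 1 rose and 6 fell. Among all genes called with MUC1-C OE 49.4% were higher, and 32.3% with library size only, under which the median of all genes moved to -0.16. UGT2B4 was counted at 42, 54 and 47 reads in LNCaP and at 0, 0 and 2 in MUC1-C OE. UGT2B4 fell by 5.56 ± 0.52 (SE) on the log2 scale (adjusted p = 4.58e-08), a ratio of 0.0184 with a counting interval of 0.00220 to 0.0675. No weight is put on that p, since UGT2B4 entered the test through its LNCaP libraries alone. Of the UGT2B genes named here UGT2B4 had the most reads in LNCaP, and its 3 MUC1-C OE libraries were all below its LNCaP libraries. UGT3A2, which uses other sugar donors, fell by 1.54 ± 0.12 (SE) and SLC35B1 fell by 0.54 ± 0.06 (SE), while GUSB rose by 0.62 ± 0.07 (SE). UGDH was at 38.3 ± 2.13 CPM in LNCaP and 41.5 ± 0.414 CPM in MUC1-C OE (adjusted p = 0.117), and UGT2B7 was at 0 reads in all 6 libraries.

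Enzymes that make or break down androgens were mixed under DOX, with 3 of 23 higher, 1 lower and 19 that did not pass, beside 12.8% of all genes higher and 14.5% lower. On the deposited TPM 10 of the 12 tested were higher and none lower, with a median log2 difference of 0.78 against 0.45 over all genes. CYP11A1, the side-chain cleavage enzyme that starts steroid synthesis, fell from 5.33 ± 2.95 to 1.23 ± 0.555 CPM (SD, n = 3, adjusted p = 0.0179). HSD3B1, which acts next on the pathway to androgens, rose from 0.0858 ± 0.0890 to 1.05 ± 0.338 CPM (adjusted p = 0.0126). It entered the test through its DOX libraries alone, so no weight is put on its p. STS, the sulfatase that frees steroid sulfates, rose by 0.67 ± 0.18 (SE) on the log2 scale and HSD17B4, which oxidises 17-beta-hydroxysteroids, by 0.36 ± 0.09 (SE). Of these, CYP11A1 and HSD17B4 were no longer called without any 1 of vehicle replicates 2 and 3 or DOX replicates 1 and 3, HSD3B1 without vehicle replicate 1, and STS without any 1 library other than DOX replicate 2. With MUC1-C OE, 8 of 18 of these genes fell and 1 rose, beside 34.1% and 33.2% of all genes, and with library size only 10 fell and none rose. The aldo-keto reductases AKR1C1, AKR1C2 and AKR1C3, which convert ketosteroids and dihydrotestosterone, fell from 3.50 ± 0.211, 5.74 ± 0.725 and 2.40 ± 0.249 CPM to under 0.1 CPM, although reads may be split among these near-identical genes. HSD17B10 fell by 0.34 ± 0.05 (SE) on the log2 scale.

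Genes known to be induced by androgen mostly rose under DOX. Of 19 tested, 12 rose and none fell, beside 12.8% and 14.5% of all genes. Their median log2 fold change was 0.82 against -0.02 over all genes, and with DESeq2 12 rose and 1 fell. KLK3 rose from 142 ± 17.6 to 320 ± 49.4 CPM (SD, n = 3, adjusted p = 0.000997). The protease gene TMPRSS2 rose from 561 ± 28.1 to 1003 ± 17.5 CPM, the metalloreductase gene STEAP4 from 0.672 ± 0.101 to 11.2 ± 3.82 CPM, and TARP from 14.9 ± 3.66 to 46.8 ± 9.13 CPM. Of 9 genes known to be repressed by androgen, 3 rose and 1 fell. The opioid receptor gene OPRK1 fell from 9.91 ± 1.25 to 1.73 ± 1.58 CPM, while PEG3 rose by 0.86 ± 0.13 (SE), ADAM7 by 2.76 ± 0.35 (SE) and TMEM100 by 3.12 ± 1.00 (SE) on the log2 scale, the last of which was lost without any 1 library other than DOX replicate 2. With MUC1-C OE, 11 of 17 androgen-induced genes fell and 3 rose, and 4 of 6 androgen-repressed genes fell and 2 rose, or 4 and 1 with library size only. Of all genes tested there, 34.1% fell and 33.2% rose. TMPRSS2 went from 167, 199 and 161 reads to 0, 0 and 1, and TRPM8, a cation channel gene, from 151, 118 and 103 reads to 0, 0 and 1, while STEAP2 fell by 1.99 ± 0.08 (SE) on the log2 scale. MET fell by 0.47 ± 0.05 (SE), DDC and PEG3 fell to at most 1 read in any MUC1-C OE library, and CAMK2N1 rose by 0.53 ± 0.09 (SE). The part of any of these genes in the members' values was not tested.

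Genes of the chemokine axis around ACKR3 were mixed under DOX. Of 14 tested, 3 rose, 4 fell and 7 did not pass, beside 12.8% of all genes higher and 14.5% lower. Their median log2 fold change was -0.03, while on the deposited TPM 3 of 9 were higher and none lower. CXCR4, the other receptor for CXCL12, was counted at 7, 5 and 13 reads in vehicle and at 4, 18 and 28 in DOX, with overlapping groups (adjusted p = 0.514). CXCL12 itself, below the filter, was counted at 18, 6 and 6 reads in vehicle and at 0, 22 and 1 in DOX. CXCL11, the other chemokine ligand of ACKR3, named here after its values were seen, was counted at 13, 11 and 3 reads in vehicle and at 45, 23 and 80 in DOX. It rose by 2.20 ± 0.60 (SE) on the log2 scale (adjusted p = 0.0253 by edgeR), a call lost without any 1 library other than DOX replicate 2, and it was at 0 reads in all 6 overexpression libraries. CALCRL, a receptor for adrenomedullin, another ligand of ACKR3, fell from 10.5 ± 2.06 to 1.92 ± 0.108 CPM (SD, n = 3, adjusted p = 0.00041). DPP4, a peptidase that cleaves CXCL12, fell by 0.93 ± 0.21 (SE) and EGFR fell by 0.60 ± 0.10 (SE) on the log2 scale, while ACKR2, a scavenger of CC chemokines, rose by 1.12 ± 0.25 (SE). The DPP4 call was lost without vehicle replicate 2 or 3 and the ACKR2 call without vehicle replicate 3 or DOX replicate 3. In the overexpression experiment, 7 of 13 fell and 3 rose, beside 34.1% and 33.2% of all genes. CXCR4 fell from 10.3 ± 1.43 to 5.08 ± 0.596 CPM (adjusted p = 5.18e-06), RAMP1 fell by 1.20 ± 0.12 (SE), RAMP2 went from 20, 34 and 22 reads to 0 in all 3 libraries, and the connexin gene GJA1 rose by 0.44 ± 0.05 (SE). CXCL12 held 1 read in total over the 6 libraries.

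ACHE, which encodes acetylcholinesterase, the other choline esterase, was higher under DOX. ACHE was counted at 18, 16 and 17 reads in vehicle and at 32, 78 and 117 in DOX. ACHE rose from 0.542 ± 0.0629 to 2.04 ± 0.924 CPM (SD, n = 3). Its log2 fold change was 1.91 ± 0.49 (SE) with an adjusted p of 0.0199 by edgeR, and the call was lost without any 1 vehicle library or without DOX replicate 3. With MUC1-C OE, ACHE fell from 4.10 ± 0.136 to 1.11 ± 0.220 CPM (adjusted p = 4.72e-07). Of the 14 cholinergic genes and esterases tested under DOX, 6 rose and 3 fell, beside 12.8% and 14.5% of all genes. With library size only 7 rose and 1 fell, and on the deposited TPM 5 of 7 were higher and none lower. SLC44A4, a choline transporter-like gene, rose by 0.62 ± 0.12 (SE) and CHRNA7, a nicotinic receptor subunit, by 1.08 ± 0.20 (SE), and the carboxylesterase CES3 fell by 1.81 ± 0.36 (SE) on the log2 scale. With MUC1-C OE, 7 of 16 fell and 4 rose, beside 34.1% and 33.2% of all genes tested there. SLC44A5 fell by 1.74 ± 0.08 (SE), the muscarinic receptor CHRM3 fell by 1.80 ± 0.16 (SE) and CES2 fell by 0.53 ± 0.06 (SE), and CHRNA5 rose by 0.50 ± 0.06 (SE).

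**Figure D5:**
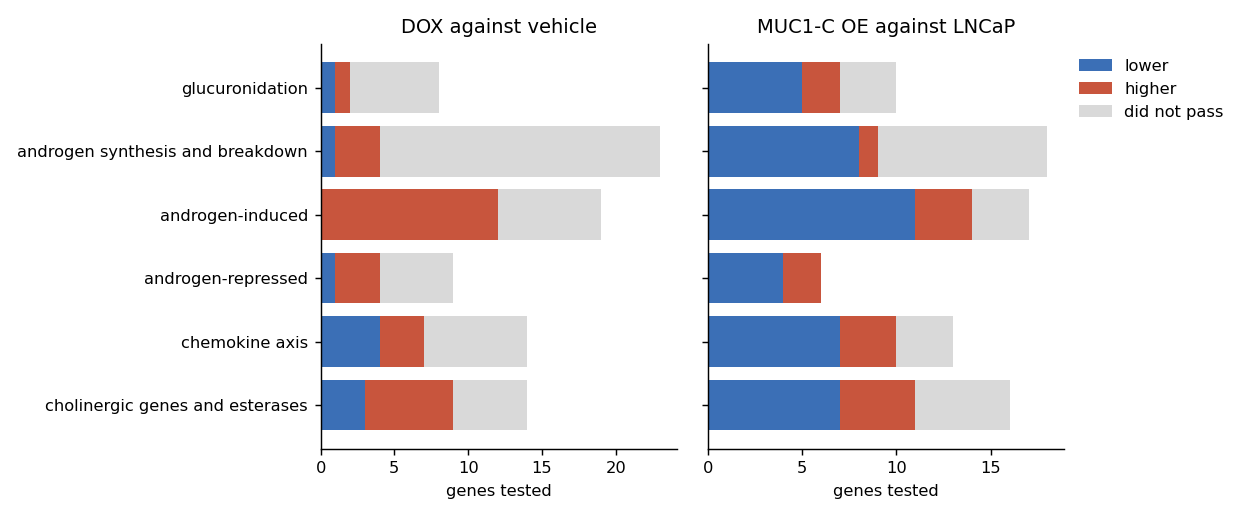
Genes tested in each of 6 lists that were lower (blue), higher (red) or did not pass an adjusted p of 0.05 (grey), for DOX against vehicle (left) and MUC1-C OE against LNCaP (right), with bar length as number of genes. The androgen-induced list had 12 of 19 higher under DOX and 11 of 17 lower with MUC1-C OE. Over all genes tested, 12.8% were higher and 14.5% lower under DOX, and 33.2% were higher and 34.1% lower with MUC1-C OE.

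The 5 genes whose profiles were most like the mean centred log2 CPM of ACKR3 and BCHE, the members that passed the filter in both tables, were B4GALT6, PRR14, STARD13, PLS3 and PRKACB. Pearson's r was 0.981 for B4GALT6 and 0.976 for PLS3, over 12 libraries centred within each experiment and among 9150 genes compared. It is a description only, since the DOX difference that chose ACKR3 and BCHE enters it through the silencing libraries. With MUC1-C OE the log2 fold change was -6.92 for ACKR3 and 0.27 for BCHE, so their mean there joins opposite directions. B4GALT6 had log2 fold changes of -1.81 under DOX and -0.96 with MUC1-C OE, and PLS3 had -0.93 and -0.55.

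The levels of the members in the LNCaP-ER vehicle and LNCaP control libraries came from separate tables normalised apart and were not tested against each other. ACKR3 was at 165 ± 19.4 CPM in LNCaP-ER vehicle and 0.870 ± 0.125 CPM in LNCaP (SD, n = 3 each). BCHE was at 35.8 ± 15.3 and 28.7 ± 1.04 CPM, UGT2B17 at 4.195 ± 1.46 and 0.295 ± 0.189 CPM, and UGT2B15 at 4.34 ± 1.76 and 0.120 ± 0.0796 CPM. Genes outside the members also differed between these groups, with FOLH1 at 1738 and 8.31 CPM, TMPRSS2 at 561 and 9.02 CPM and MET at 1.07 and 121.5 CPM. KRT8, at 146 and 154 CPM, was close. A wide gap was thus not particular to the members, and what sets these libraries apart was not tested.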

How the data were processed

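RNA-Seq of total RNA from triplicate cultures, prepared per the labels with a stranded mRNA kit, was analysed for 12 libraries. The submitters' processing notes name STAR, DESeq2 and builds GRCh38 and hg38; versions, annotation and counter are not given in the sources used here. The deposited files hold raw counts per gene symbol for both experiments and TPM for the silencing experiment, in which the authors divided by gene length; RN7SK took 24.6% to 37.7% of the TPM. A further 12 columns of other cell lines were not used. The members and gene lists were chosen with earlier results of these data known. Each experiment was fitted on its own with edgeR 4.0.16 (quasi-likelihood test, TMM, filterByExpr, robust, R 4.3.3) and p-values were adjusted over all genes tested by Benjamini-Hochberg, with a threshold of 0.05. p-values measure the spread between triplicate cultures. The fit was tested on simulated counts. Alternatives were DESeq2 1.42.0, limma 3.58.1 on log2(TPM + 1) for genes of at least 1 TPM in 3 libraries and on log2(TPM + 0.1), other scalings, filters and thresholds, a replicate block, and each library left out. Named genes were the 7 members, MUC1, UGT2B4, UGT2B7, UGDH, CXCR4, CXCL12, ACHE, up to 4 genes per list and experiment with the smallest p among those called with a group mean of at least 1 CPM, and the 5 genes most like the members' mean profile. Other genes are named as cell type markers. Some genes of these lists, and 1 list, are not reported here. Transcripts were compared from GENCODE v29 with Biopython 1.88, using the longest protein-coding transcript of each gene.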

Additional observations from a re-analysis of the deposited data

How the results depend on the processing

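Direction did not change for any member in any alternative in which it could be fitted. The number of members called with MUC1-C OE, 2 as reported, was 1 with median-of-ratios factors, with library size only and with a log2 change of 1 or more in size also required. It was 3 with DESeq2, 4 with no filter on low counts and 0 with at least 10 counts in every library, where fewer members were tested. It was 1 to 2 with 1 library left out. Genes called under DOX, 4006 as reported, were 988 with that size and 2002 to 5243 with 1 library left out, lowest without vehicle replicate 3. Genes called with MUC1-C OE, 9312 as reported, were 1917 with it. List genes called under DOX, 38 as reported, were 20 with it and 20 to 46 with 1 library left out, and those with MUC1-C OE, 57 as reported, were 25. The cause of the drop without vehicle replicates 2 or 3 or DOX replicate 3 was not tested. Samples with the same replicate number did not deviate together (correlation of deviations -0.07 to 0.09 under DOX and -0.15 to -0.03 with MUC1-C OE), and not every library correlated best with its own number, so the numbers do not pair the samples. With the replicate block, 4226 genes were called under DOX, 8965 with MUC1-C OE and 2 members with MUC1-C OE, and 34 and 55 list genes; SLC35B1 and TMEM100 were no longer called under DOX. Without a filter on low counts SLC35B1, GUSB, HSD17B4, OPRK1 and TMEM100 were no longer called under DOX, nor was SLC35B1 with DESeq2 or GUSB with library size only; every named list gene kept its call and direction in the overexpression experiment in each alternative in which it could be fitted. The counts of members higher without overlap were an alternative chosen after seeing the data. Depth limits the UGT2B genes in the overexpression libraries, where 3 reads over a group is the most that a count of 0 allows.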
